A study of Mus musculus with 1699 samples.

Results

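Nicotinic acetylcholine receptors of neurons are built from a small family of subunits, and 8 of the genes that encode them (Chrna3, Chrna4, Chrna5, Chrna6, Chrna7, Chrnb2, Chrnb3 and Chrnb4) were followed in single cells of the mouse ventral midbrain. These genes were listed by name, with no limit on a measured value and with earlier results of these data known, and are 8 of 39468 gene entries. The cells carried Pitx3eGFP, a knock-in in which eGFP sits in the locus of Pitx3, a transcription factor of midbrain dopamine neurons, and GFP-positive cells were sorted and sequenced one at a time with Smart-seq2. The 6 Pitx3eGFP/wt groups, which have 1 intact Pitx3 copy, followed development in order, from the embryo (E13.5, then E15.5, then E18.5, in days of gestation) to the pup (P1 and P7, in days after birth) and the adult (P90). The 2 Pitx3eGFP/eGFP groups, in which both copies carry the knock-in, were of E13.5 and P1. All 8 groups therefore carried at least 1 eGFP allele, no group was wild type at Pitx3, and the labels name no treatment. The cells isolated are those in which GFP from the Pitx3 locus was detected, so midbrain cells outside that gate are not represented. The paper reports that neurons with high Slc6a3, the dopamine transporter gene, were underrepresented among its sequenced cells when set against tissue sections. Shares over all P90 cells need therefore not match those of the tissue.

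A nicotinic receptor is a ring of 5 subunits around a cation channel that opens when acetylcholine or nicotine binds. The α subunits other than α5 form the principal face of the agonist site, the β2 and β4 subunits form its complementary face, and α5 and β3 take an accessory position, whereas α7 can form a receptor on its own. Dopamine neurons of the midbrain are known for receptors with α4β2 and for receptors with α6 and β3, which act on dopamine release at their terminals, while receptors with α3 and β4 are best known from autonomic ganglia and the habenula.

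The α subunits are defined by adjacent cysteines at the tip of the agonist-binding loop. The 30 coding bases around these codons are shown because they separate the α genes from the β genes of the family, and the capitals mark the adjacent cysteine codons. They were read 5′ to 3′ from the GENCODE transcripts of GRCm38, the build that mm10 names.
Chrna3, chr9:55015842-55015871, minus strand, exon 5 of 6: atcaagtacaacTGCTGTgaggagatctac
Chrna4, chr2:181029266-181029295, minus strand, exon 5 of 6: aggaagtatgaaTGCTGTgccgagatctat
Chrna5, chr9:55004605-55004634, plus strand, exon 5 of 6: cggacggacagcTGCTGCtggtacccctgc
Chrna6, chr8:27407167-27407196, minus strand, exon 5 of 6: atcaagtacaacTGCTGTgaagagatttac
Chrna7, chr7:63106146-63106175, minus strand, exon 7 of 10: aagttctatgaaTGCTGCaaagagccatac
All 5 windows lie in coding exons. The principal transcripts of Chrnb2, Chrnb3 and Chrnb4 held 0 such codon pairs in frame.

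The genes lie at 5 places in the genome. Chrna6 (chromosome 8, 27403212 to 27413944, minus strand) and Chrnb3 (chromosome 8, 27368711 to 27399730, plus strand) are neighbours whose 3′ ends lie 3481 bases apart. Chrna5 (chromosome 9, 54980880 to 55007779, plus strand), Chrna3 (55010111 to 55026562, minus strand) and Chrnb4 (55028154 to 55048779, minus strand) form a cluster with gaps of 2331 and 1591 bases. Chrna4 (chromosome 2, 181018380 to 181043546), Chrna7 (chromosome 7, 63098692 to 63212569) and Chrnb2 (chromosome 3, 89746195 to 89764632) stand apart, each on the minus strand. Chrnb2 overlaps Adar, and 1014 of the 6399 bases of its transcript are also exonic in Adar. The protocol does not mark strand, so Chrnb2 and Adar reads cannot be told apart there. Adar, an RNA-editing enzyme, had a mean RPKM of 18.7 at E13.5 and 86.2 at P90. Another annotated gene overlaps 8647 bases of Chrnb4 and a further gene overlaps 2127 bases of Chrna7, both with 0 shared exonic bases.

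Of 1699 cells, 1649 passed the limits on reads and genes, and removal of those with at least 3 of 8 oligodendrocyte markers over RPKM 10 left 1537, of which 1186 were Pitx3eGFP/wt. From E13.5 to P90 the Pitx3eGFP/wt stages made up 9.11%, 9.17%, 12%, 18.3%, 7.42% and 21.1% of the 1537 cells, and the Pitx3eGFP/eGFP groups 11.6% and 11.2% at E13.5 and P1. Reads on genes ranged from 100007 to 8634201 per cell, with group medians from 753256 to 2357898, the lowest in Pitx3eGFP/eGFP and the highest in Pitx3eGFP/wt cells at E13.5. The animal of each cell is not named, so each group counts as 1 sample and no difference below has a replicate check or a p-value. Levels are RPKM, reads scaled to gene length and to the mapped reads of the cell, and a cell was counted as over the threshold above RPKM 10. Shares carry exact Clopper-Pearson 95% intervals and differences of shares Newcombe 95% intervals in brackets, both of which cover counting error over cells only and not the spread between animals. Comparisons share cells, since the P90, P1 and E13.5 cells enter several of them. As a check of the labels, mean Pitx3 was 416 in Pitx3eGFP/wt and 18.8 in Pitx3eGFP/eGFP cells at E13.5, and 98.2 and 7.93 at P1. Of the kept cells, 62 had fewer than 3 of 4 neuron markers over RPKM 10, and 35 of these were at P7, where 34.2% of cells had at least 2 of 4 astrocyte markers. In the 62 cells Chrnb2 was over RPKM 10 in 16.1%, Chrna6 in 6.45% and Chrnb3 in 0 of 62, which allows a share of up to 4.84% when the limit is taken as 3 cells of the total, as for every 0 given such a limit below, at a median of 2083161 reads against 1625742 in the other kept cells. The P7 shares of several genes are therefore also given for the 79 cells with at least 3 neuron markers. Spike-in RNA, which marks a difference in preparation, was in all Pitx3eGFP/wt cells at E18.5 and P90, in none at E13.5, E15.5 and P7, and in part of those at P1. Differences of P90 from E13.5, E15.5 or P7, and of E18.5 from E13.5 or E15.5, therefore cannot be told apart from preparation. No kept cell in any group had 2 or more of the habenula markers or of the motor neuron markers.

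The first question was how the subunit genes are used across maturation. Chrnb2 was the most widely detected gene at every stage and Chrna5 and Chrnb4 were barely detected, whereas Chrna6, Chrnb3, Chrna4, Chrna3 and Chrna7 differed between stages, each with its own course. Chrna6 was already in most cells at E15.5, Chrnb3 reached that point only at E18.5, and Chrna4 was most frequent at P90 by the RPKM 10 limit. In each of the 64 gene and group combinations the lowest cell was at RPKM 0, so the groups always overlapped cell by cell.

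**Figure D1:**
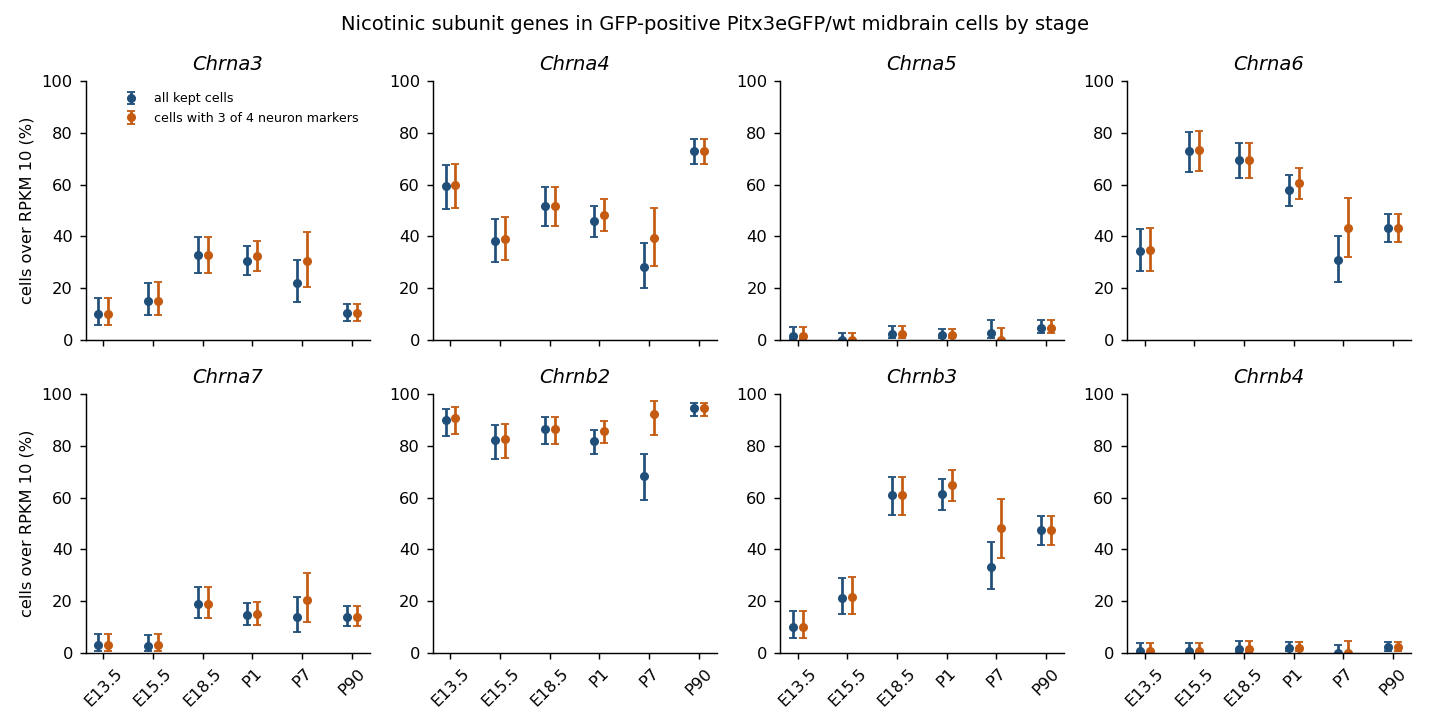
Share of Pitx3eGFP/wt cells with an RPKM over 10 (percent, y axis) by stage (x axis) for each of the 8 subunit genes, with exact 95% binomial intervals, for all kept cells and for cells with at least 3 of 4 neuron markers. Chrnb2 is highest throughout, Chrna6 is highest at E15.5 (73%), Chrnb3 steps up between E15.5 (21.3%) and E18.5 (60.9%), and the 2 sets of cells part visibly at P7 only.

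Chrna6, which encodes the α6 subunit, was over RPKM 10 in 34.3% (26.5 to 42.8), 73% (64.9 to 80.2), 69.6% (62.4 to 76.1), 57.8% (51.8 to 63.6), 30.7% (22.4 to 40) and 43.1% (37.6 to 48.7) of cells in stage order from E13.5 to P90. Its median levels in the same order were 0.299, 340.9, 142.01, 153.3, 0.154 and 0.940, with highest cells between 878 (P90) and 3425 (E15.5). The median cell thus carried Chrna6 from E15.5 to P1 but not before or after. The share was higher at E15.5 than at E13.5 by 38.8 points [27.4 to 48.7], and the mean RPKM by 4.19-fold (562 against 133.1). The E18.5 share did not differ from that at E15.5 beyond counting error (difference -3.48 points [-13.1 to 6.52]), and the P1 share was below that at E18.5 (-11.8 points [-20.3 to -2.79]). With spike-in cells alone at P1, as at E18.5, that difference was -3.61 points [-15.4 to 7.62]. P7 cells had no spike-in RNA, whereas part of the P1 cells did, and these had the larger Chrna6 share. Between P1 and P7 the difference was -27.1 points over all kept cells and -17.6 points [-29.4 to -5.13] over cells with neuron markers, of which 43% (31.9 to 54.7) had Chrna6 at P7. From that value to P90 the difference was 0.0389 points [-12.1 to 11.7]. Whether Chrna6 looks higher or lower in adult cells depends on the embryonic stage it is set against, since P90 minus E13.5 gave 8.79 points [-0.947 to 17.9] and P90 minus E15.5 gave -30 points [-38.5 to -20.4].

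Chrnb3 encodes the accessory β3 subunit found with α6. From E13.5 to P90 it was over RPKM 10 in 10% (5.58 to 16.2), 21.3% (14.8 to 29), 60.9% (53.4 to 68), 61.3% (55.4 to 67.1), 33.3% (24.8 to 42.8) and 47.4% (41.8 to 53) of cells. Its mean level in that order was 15.8, 30.7, 103.4, 133.7, 69.99 and 115.6 RPKM. The largest step between neighbouring stages was from E15.5 to E18.5 (39.6 points [29.2 to 48.6]), a stage later than that of Chrna6. Spike-in RNA came in over the same step, and within P1 the cells with it had more Chrnb3 (27.7 points [16.1 to 37.5]). Among cells without it Chrnb3 was 30.9 points [20.5 to 40.1] higher at P1 than at E15.5, a step over which the dissociation kit changed. Over all cells E18.5 and P1 did not differ beyond counting error (0.478 points [-8.43 to 9.54]), but P1 cells with spike-in RNA lay 18.9 points [7.49 to 28.9] above E18.5, where all cells had it. There was also no difference beyond counting error between P90 and the P7 cells with neuron markers (-0.717 points [-12.8 to 11.3]), 48.1% (36.7 to 59.6) of which had Chrnb3.

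Chrna4 encodes the α4 subunit, the partner of β2 in the receptors with the highest affinity for nicotine. Cells over RPKM 10 were 59.3% (50.7 to 67.5), 38.3% (30.2 to 46.9), 51.6% (44.2 to 59), 45.7% (39.8 to 51.8), 28.1% (20.1 to 37.3) and 72.9% (67.7 to 77.7) of all cells over the stages in order. This is a course with a low middle, opposite to that of Chrna6 at its start: between E13.5 and E15.5 the share of Chrna4 differed by -21.0 points [-31.9 to -9.31] while that of Chrna6 differed by 38.8 points. At P90 the share was 13.6 points [4.34 to 23.1] above E13.5 although the mean was lower (57.4 against 85.5), and the highest cells were at 559 at E13.5 and 426 at P90. At a threshold of RPKM 50 the share difference turned to -6.74 points [-16.5 to 2.97], and 23.6% of E13.5 and 8.92% of P90 cells were over 150. Lower and higher thresholds for Chrna4 therefore order these stages differently. The P90 share also exceeded that of P7 cells with neuron markers by 33.7 points [21.5 to 44.7].

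Chrnb2, whose β2 subunit joins most α subunits, was over RPKM 10 in 90.0% (83.8 to 94.4) of cells at E13.5, between 81.9% and 86.4% from E15.5 to P1, 68.4% (59.1 to 76.8) at P7 and 94.5% (91.4 to 96.7) at P90. Median levels at E13.5 and P90 were 77.5 and 68.4. Among P7 cells with neuron markers the Chrnb2 share was 92.4% (84.2 to 97.2), so its low value at P7 was found with the cells that lack neuron markers. P90 and E13.5 did not differ beyond counting error (4.46 points [-0.526 to 10.9]).

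Chrna3, Chrna5 and Chrnb4, the clustered genes, were not used alike. Chrna3 was over RPKM 10 in 10% (5.58 to 16.2), 14.9% (9.46 to 21.9), 32.6% (25.9 to 39.9), 30.5% (25.2 to 36.2), 21.9% (14.7 to 30.6) and 10.2% (7.09 to 14) of cells from E13.5 to P90, a perinatal high with ends that did not differ beyond counting error (P90 minus E13.5, 0.154 points [-6.56 to 5.61]). The E18.5 share of Chrna3 was 17.7 points [8.40 to 26.3] above E15.5, and the P90 share was 20.2 points lower than in P7 cells with neuron markers (-20.2 [-31.4 to -10.4]). Chrna5 was over RPKM 10 in at most 4.62% (2.61 to 7.50) of cells, at P90, and in 0 cells at E15.5, which allows up to 2.13%. Chrnb4 was over RPKM 10 in at most 2.15% of cells at any stage and in 0 cells at P7, which allows up to 2.63%. Chrna7, the gene of the homomeric receptor, was in 2.86% and 2.84% of cells at the first stages, then 19% (13.6 to 25.4), 14.5%, 14% and 13.8% (10.3 to 18.1), with mean levels of 1.33 to 6.55 RPKM. The step for Chrna7 lay between E15.5 and E18.5 (16.2 points [9.62 to 22.7]), as for Chrnb3 and Chrna3. Within P1, cells with spike-in RNA had more Chrna3 (19.7 points [8.06 to 31.2]), and the Chrna7 difference was 8.51 points [-0.218 to 18.5]. Among cells without spike-in RNA, P1 lay above E15.5 by 9.04 points [0.270 to 17.3] for Chrna3 and 8.87 points [3.15 to 14.5] for Chrna7. The dissociation kit changed over that step. In the P7 cells with neuron markers Chrna7 was in 20.3%.

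Counted by mean RPKM with a pseudocount of 1, among entries whose mean reached 1 at one of the stages, 2 of the 7 subunit genes that passed this minimum were at least 2-fold higher at P90 than at E13.5 (Chrnb3 by 6.95-fold and Chrna7 by 2.16-fold), and 0 were at least 2-fold higher at E13.5. The background for this count is 20.8% of all 15548 entries higher at P90 and 19.9% higher at E13.5, so the count is near what is seen over all genes. The median log2 fold was -0.15 for the subunit genes and -0.07 for all entries. Chrnb4 was below the minimum. Chrna7 lost its call when thinned to 100000 reads (log2 fold 0.96), with a pseudocount of 10 (0.34) and with means of log2 values (0.63). Dissociation kits differed between the embryonic stages, P1 and P7, and P90, so kit and age cannot be told apart across those steps.

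The next question was how the genes differ with dopamine character. Cells were divided by Th, the enzyme that makes the dopamine precursor, and Slc6a3, the dopamine transporter, each at RPKM 150. At P90, 70 cells (21.5%) had both over 150, 33.2% had only Th, and 44.9% had neither. Cells with both were richer in Chrna6, Chrnb3, Chrna4, Chrna3, Chrna5 and Chrna7, whereas the direction for Chrnb2 turned with the measure. The widest gap was that of Chrna6, which was over RPKM 10 in 85.7% of cells with both and 14.4% of cells with neither (71.3 points [59.3 to 79.3]), at means of 328.5 and 13.9 (22.1-fold). Chrnb3 was in 78.6% and 20.5% (58 points [44.9 to 67.9]; 4.34-fold). Chrna4 was widespread in both classes, at 87.1% and 70.5% (16.6 points [4.67 to 26.4]), and differed more in level, with means of 120 and 36.4 (3.24-fold).

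The rarer subunits showed the same direction at P90. Chrna7 was over RPKM 10 in 27.1% of cells with both genes and 8.90% with neither (18.2 points [7.55 to 30.2]; 2.68-fold), Chrna3 in 20% and 4.79% (15.2 points [6.15 to 26.3]; 3.72-fold), and Chrna5 in 12.9% and 2.05% (10.8 points [3.74 to 20.7]; 7.07-fold). Chrnb2 was in 90.0% and 95.9% (-5.89 points [-15.4 to 0.933]), but its mean was 1.36-fold higher in cells with both (93 against 67.9) and at a threshold of RPKM 50 the difference in share was 11.5 points [-1.37 to 22.6]. Chrnb4 was in 1.43% and 3.42%. In all, 6 of 8 subunit genes were at least 2-fold higher in cells with both and 0 in cells with neither. The count of 6 was 3 with a pseudocount of 10 and 4 with means of log2 values. Of the 6, Chrna5 reached the minimum mean of 1 only in the cells with both (9.75 against 0.521), so its direction was fixed by that minimum. Over all 14946 entries tested, 5.65% were at least 2-fold higher in cells with both and 9.93% in cells with neither, and the median log2 fold was 1.80 for the subunit genes and -0.12 for all entries. The low Chrna5 and Chrna3 levels make their folds sensitive to a few cells: the highest Chrna5 cell at P90 reached 384.2 and the highest Chrna3 cell 348.2.

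The plates of the P90 cells, numbered 1, 2, 4 and 5, gave the same direction for Chrna6 and Chrnb3. In cells with both and with neither, Chrna6 was found in 96.4% and 12.9% on plate 1, 76.2% and 11.1% on plate 2, 84.6% and 12.7% on plate 4, and 75% and 25% on plate 5. Chrnb3 was in 85.7% and 12.9%, 76.2% and 16.7%, 69.2% and 16.4%, and 75% and 45.8%. Chrna3 was higher in cells with both on plates 1, 2 and 4 (25% against 0%, 14.3% against 2.78% and 30.8% against 7.27%). On plate 5 it was at 0% against 8.33%, but cells with both were fewest there and no direction can be read.

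**Figure D2:**
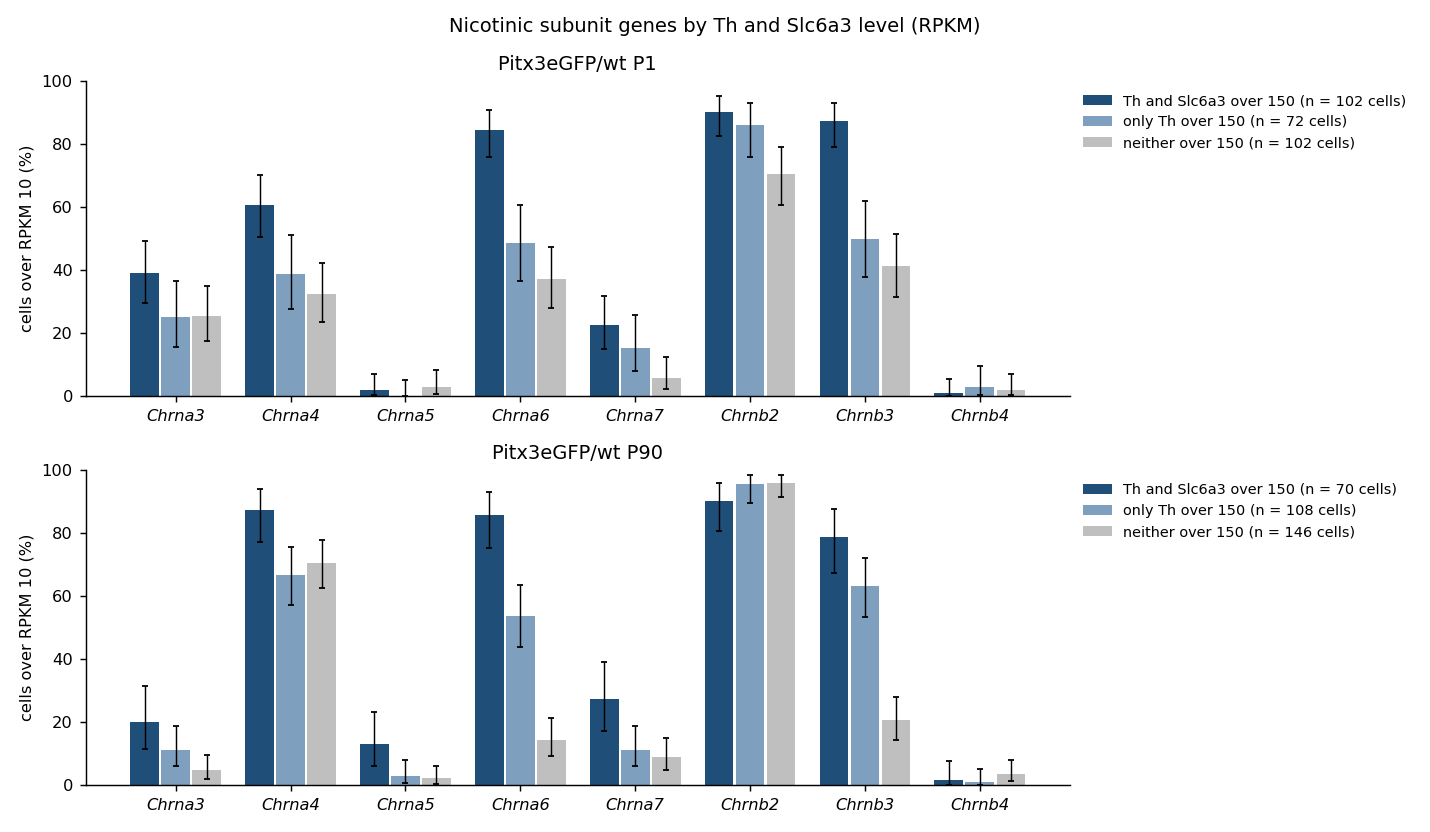
Share of cells with an RPKM over 10 (percent, y axis) for each subunit gene (x axis) at P1 and P90, in cells with Th and Slc6a3 over RPKM 150, with only Th over 150 and with neither, as bars with exact 95% binomial intervals. At P90 Chrna6 steps from 85.7% through 53.7% to 14.4%, whereas Chrnb2 stays between 90.0% and 95.9%.

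Cells with Th but not Slc6a3 at P90 separated the genes further. Their Chrna6 share, 53.7%, lay 39.3 points [27.9 to 49.6] above that of cells with neither and 32 points [18.4 to 43.3] below that of cells with both. Their Chrnb3 share, 63%, lay 42.4 points [30.5 to 52.7] above cells with neither and 15.6 points [1.73 to 27.9] below cells with both. Chrna6 and Chrnb3 were thus graded over the 3 classes. For Chrna4 the same cells, at 66.7%, did not differ from cells with neither beyond counting error (-3.88 points [-15.4 to 7.45]) and lay 20.5 points [7.70 to 31.5] below cells with both, so Chrna4 was higher where Slc6a3 was also high. Chrna7 and Chrna5 followed the pattern of Chrna4, with 16 and 10.1 points between cells with both and cells with only Th.

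Along Th alone at P90, Chrna6 was over RPKM 10 in 11.2% of 98 cells with Th up to 10, 22.4% of 49 cells with Th of 10 to 150, 37.7% of 61 cells with Th of 150 to 1000 and 81.2% of the cells with Th over 1000. Chrnb3 was in 19.4%, 24.5%, 42.6% and 82.9% of the same cells. Most of the step for both genes lay between the upper bands. Chrna4 was in 72.4%, 67.3%, 78.7% and 72.6%, with no order by share, although its mean was 34.2 in the lowest band and 88.6 in the highest. Chrnb2 was in 95.9%, 95.9%, 95.1% and 92.3%.

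At P1, 36.2% of cells had both Th and Slc6a3 over 150, 72 cells (25.5%) had only Th and 36.2% had neither. Chrna6 was in 84.3% of cells with both and 37.3% with neither (47.1 points [34.3 to 57.6]; 3.23-fold), and Chrnb3 in 87.3% and 41.2% (46.1 points [33.6 to 56.5]; 3.12-fold). Chrna4 was in 60.8% and 32.4% (28.4 points [14.8 to 40.6]; 3.56-fold), Chrna7 in 22.5% and 5.88% (16.7 points [7.19 to 26.2]; 2.97-fold) and Chrna3 in 39.2% and 25.5% (13.7 points [0.884 to 26]). Chrnb2 was also more frequent in cells with both (90.2% against 70.6%; 19.6 points [8.80 to 30]), with a log2 fold of the mean of 0.54 beside 0.45 at P90, while all cells with both and 89 of the cells with neither had at least 3 neuron markers. A total of 4 of 7 subunit genes tested were at least 2-fold higher in cells with both and 0 in cells with neither, where 4.70% of all 16292 entries were higher in cells with both and 14.7% in cells with neither. At P1 cells with only Th and cells with neither did not differ beyond counting error in Chrna6 (11.4 points [-3.43 to 25.7]) or Chrnb3 (8.82 points [-6.03 to 23.3]), and the change from P1 to P90 in these differences was not tested. The P1 cells with and without spike-in RNA gave the same direction for Chrna6 (61.7 and 40.6 points), Chrnb3 (37.4 and 44.4 points) and Chrna4 (15.4 and 30.6 points). The Chrna4 interval included 0 in the spike-in cells [-8.33 to 37.6]. For Chrnb2 the difference was 4.88 points [-9.05 to 24.6] in the spike-in cells and 22.9 points [8.12 to 35.4] in the others, so it was beyond counting error only in the cells without spike-in RNA. The difference between these values was not tested.

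At the other stages the Chrna6 share in cells with both genes and with neither was 75% and 6.12% (E13.5), 91.7% and 45.9% (E15.5), 89.6% and 51% (E18.5) and 60.7% and 12.9% (P7). At P7 the class with neither was 62 cells, 27 of which had at least 3 neuron markers, and among cells with those markers the P7 shares were 60.7% and 25.9% (34.8 points [8.58 to 55]). The class with both held 75% or more at every stage but P7, while the class with neither varied from 6.12% to 51%. The stage course of Chrna6 was therefore also seen in cells without Th or Slc6a3 over 150. Chrna4 in the same classes was 95.8% and 40.8% at E13.5 (55 points [33.7 to 68.1]) and 61.1% and 10.8% at E15.5 (50.3 points [28.9 to 65.8]). Chrnb3 at E13.5 was in 16.7% and 8.16% of cells (8.50 points [-6.37 to 28.3]), so at that stage it did not differ with class beyond counting error, whereas Chrna6 did (68.9 points [46.4 to 82.5]).

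Receptors need their subunits in the same cell, so pairs were counted, at every stage over all kept cells. From E15.5 on Chrnb3 was found mostly in cells with Chrna6, but Chrna6 was common without Chrnb3 at the early stages. Of cells with Chrna6 over RPKM 10, the share that also had Chrnb3 was 16.7%, 26.2%, 82.8%, 86.5%, 77.1% and 90.0% from E13.5 to P90. In cells without Chrna6 the Chrnb3 share was 6.52%, 7.89%, 10.7%, 26.9%, 13.9% and 15.1%. The difference was 10.1 points [-0.453 to 23.5] at E13.5, 18.3 points [3.38 to 28.9] at E15.5, 72.1 points [59 to 80.1] at E18.5 and 74.9 points [66.4 to 80.8] at P90. Read the other way, 90.0% of the 30 cells with Chrnb3 at E15.5 and 81.8% of those at P90 had Chrna6. Pearson's r of log2(RPKM + 1) between both genes over cells was 0.18, 0.26, 0.73, 0.64, 0.70 and 0.79 from E13.5 to P90 over the cells of each stage, which share library preparation and vary in depth.

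**Figure D3:**
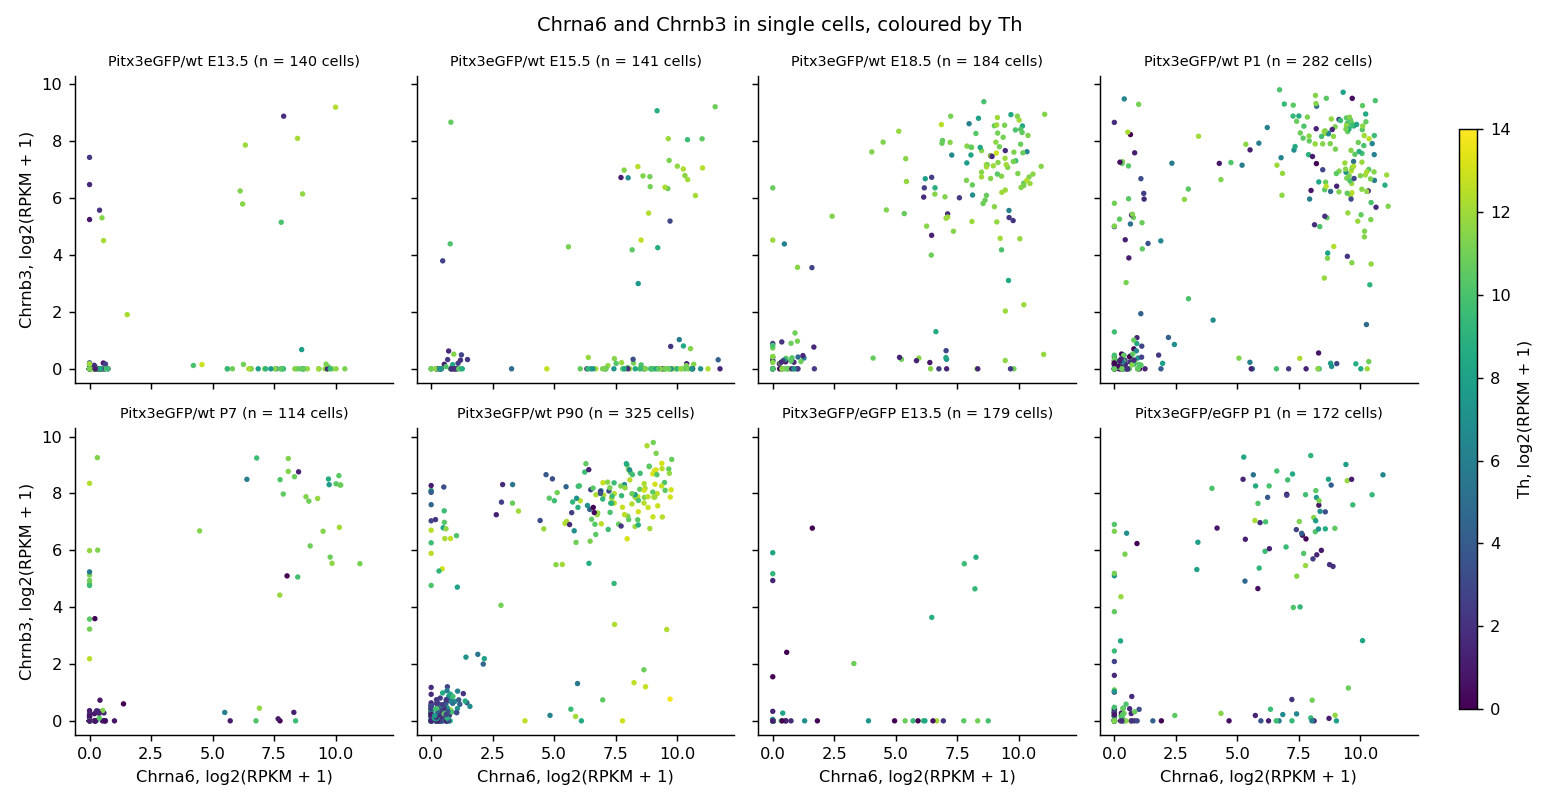
Chrna6 (x axis) against Chrnb3 (y axis), both as log2(RPKM + 1), in every kept cell of the 8 groups, coloured by Th on the same scale. At E13.5 and E15.5 most cells with Chrna6 lie on the axis without Chrnb3, and from E18.5 on most lie in the upper right (90.0% of cells with Chrna6 at P90 also had Chrnb3).

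Chrna4 and Chrna6 were combined differently at different ages. The shares of cells with Chrna4 but not Chrna6, Chrna6 but not Chrna4, both and neither were 29.3%, 4.29%, 30% and 36.4% at E13.5, 7.09%, 41.8%, 31.2% and 19.9% at E15.5, and 40.9%, 11.1%, 32% and 16% at P90. At E13.5 most cells with Chrna6 also had Chrna4, at E15.5 more cells had Chrna6 alone than both, and at P90 Chrna4 alone was the largest class. The share with both was near 30% at these ages, but 39.1% at E18.5 and 14.9% at P7. Chrna4 was in 87.5% of cells with Chrna6 and 44.6% of cells without at E13.5 (42.9 points [27.1 to 54.7]), and in 74.3% and 71.9% at P90 (2.39 points [-7.45 to 11.9]), so at P90 presence over RPKM 10 did not differ beyond counting error. By level, Pearson's r of log2(RPKM + 1) between Chrna4 and Chrna6 was 0.45 at E13.5 and 0.18 at P90 over the cells of each stage, which share preparation and vary in depth. Among P90 cells with Th and Slc6a3 over 150, 77.1% had both Chrna4 and Chrna6 and 10% had only Chrna4. The P90 shares over all cells thus rest on how many cells of each class were recovered.

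Cells with all of Chrna4, Chrna6, Chrnb2 and Chrnb3 over RPKM 10 were 5%, 7.09%, 31.5%, 23.4%, 11.4% and 27.4% from E13.5 to P90. Among cells with Th and Slc6a3 over 150 they were 12.5%, 16.7%, 55.8% and 41.2% from E13.5 to P1, 32.1% (15.9 to 52.4) of 28 cells at P7 and 62.9% (50.5 to 74.1) at P90, against 6.85% of P90 cells with neither. The set was thus uncommon before E18.5 even in the class with the most Chrna6. The median cell had 2 of the 8 genes over RPKM 10 at E13.5, E15.5 and P7 and 3 at E18.5, P1 and P90, and 0 cells had all 8.

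**Figure D4:**
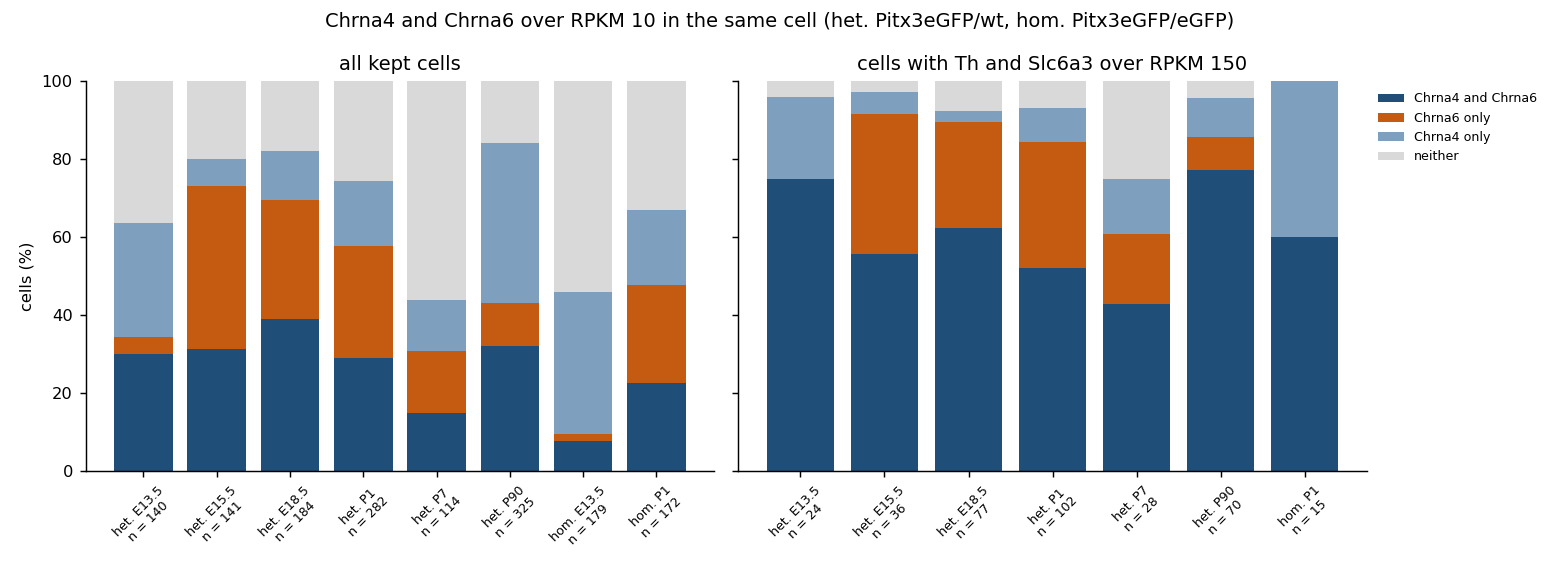
Share of cells (percent, y axis) with Chrna4 and Chrna6, only Chrna6, only Chrna4 or neither over RPKM 10 in each group (x axis), for all kept cells and for cells with Th and Slc6a3 over RPKM 150. In all kept cells Chrna6 alone is widest at E15.5 (41.8%) and Chrna4 alone at P90 (40.9%); Pitx3eGFP/eGFP at E13.5 has 1 cell in the second class and is not drawn there.

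Pitx3eGFP/eGFP cells, which lack intact Pitx3, were compared with Pitx3eGFP/wt cells to ask what depends on Pitx3. At E13.5 the widest difference was that of Chrna6, which was over RPKM 10 in 9.50% (5.63 to 14.8) of Pitx3eGFP/eGFP and 34.3% (26.5 to 42.8) of Pitx3eGFP/wt cells (-24.8 points [-33.7 to -15.8]), at means of 14.2 and 133.1 (8.82-fold). The highest cells were at 432 and 1331. Chrna4 was in 44.1% and 59.3% (-15.2 points [-25.7 to -4.10]; 1.61-fold). Chrnb3, rare at this stage, was in 4.47% and 10% (-5.53 points [-12.0 to 0.163]), with a mean 5.42-fold lower. Chrna7 was in 8.38% and 2.86% (5.52 points [0.174 to 10.8]), the opposite direction, and Chrnb2 (91.1% and 90.0%; 1.06 points [-5.38 to 8.01]) and Chrna3 (-4.97 points [-11.5 to 0.830]) did not differ beyond counting error. Of the 8 genes, 0 were at least 2-fold higher in Pitx3eGFP/eGFP and 2 in Pitx3eGFP/wt cells, Chrna6 and Chrnb3, where 4.35% and 4.77% of 14563 entries were. By means of log2 values Chrna6 kept its call, Chrnb3 lost it (-0.42) and Chrna4 gained one (-1.13). All Pitx3eGFP/eGFP cells at E13.5 had spike-in RNA and no Pitx3eGFP/wt cell did, so genotype cannot be told apart from preparation at this stage. Thinned to 100000 reads per cell, the Chrna6 shares were 8.94% and 34.3%. Those of Chrna7 were then 7.82% (4.34 to 12.8) and 4.29% (1.59 to 9.09), with intervals that overlapped.

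Th itself was lower in Pitx3eGFP/eGFP cells, with a median of 86.9 against 724 at E13.5, and it was over 150 in 51.2% against 61.7% of cells at P1. Slc6a3 was over 150 in 0.559% against 17.9% of cells at E13.5 and 9.30% against 38.3% at P1. The genes were therefore also compared on each side of RPKM 150 in Th, a limit that does not match Th within a side. Among E13.5 cells with Th over 150, Chrna6 was in 16.9% of 77 Pitx3eGFP/eGFP and 50% of 90 Pitx3eGFP/wt cells (-33.1 points [-45.3 to -19]), at means of 29 and 193.2. The Chrna6 difference was thus also present among cells with Th over 150. Of these cells, 1 of 77 Pitx3eGFP/eGFP and 24 of 90 Pitx3eGFP/wt also had Slc6a3 over 150. In cells with only Th over 150, Chrna6 together with Chrna4 was in 13.2% of 76 Pitx3eGFP/eGFP and 31.8% of 66 Pitx3eGFP/wt cells. Chrna6 without Chrna4 was in 2.63% and 9.09% of the same cells. Among E13.5 cells with Th at or under 150 Chrna6 was rare in both genotypes, 3.92% of Pitx3eGFP/eGFP and 6.0% of 50 Pitx3eGFP/wt cells (-2.08 points [-12.6 to 4.88]). With Th over 150 the shares of Chrnb3 (-2.21 points [-11.2 to 7.20]) and Chrna4 (-13.0 points [-27.1 to 1.61]) did not differ beyond counting error, although the mean of Chrnb3 was 4.12-fold lower in Pitx3eGFP/eGFP cells (3 against 15.5). With Th at or under 150 Chrnb3 differed by -8.04 points [-19.5 to -0.553]. Chrnb2 went opposite ways, by -7.62 points [-17.8 to 1.77] with Th over 150 and 11.1 points [1.33 to 23.9] at or under it. In bands of Th, Chrna6 was in 23.7% of Pitx3eGFP/eGFP cells at 150 to 1000 and 10.3% above 1000, against 42.3% and 53.1% of Pitx3eGFP/wt cells.

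At P1 the widest difference in share was that of Chrnb3, which was in 41.9% (34.4 to 49.6) of Pitx3eGFP/eGFP and 61.3% (55.4 to 67.1) of Pitx3eGFP/wt cells (-19.5 points [-28.5 to -10]), at means of 72.4 and 133.7 (1.84-fold). Chrna3 was in 15.1% (10.1 to 21.4) and 30.5% (25.2 to 36.2) (-15.4 points [-22.6 to -7.43]; 2.68-fold). Chrna6 was in 47.7% (40 to 55.4) and 57.8% (51.8 to 63.6) (-10.1 points [-19.4 to -0.680]) with a mean 2.86-fold below the 376 of Pitx3eGFP/wt cells, a narrower gap in share than at E13.5. Whether the genotype difference itself changed with stage was not tested. Chrna4 (-3.88 points [-13.1 to 5.52]), Chrna7 (-2.33 points [-8.47 to 4.46]) and Chrnb2 (-2.85 points [-10.7 to 4.46]) did not differ beyond counting error. Of the 6 genes that passed the minimum, 0 were at least 2-fold higher in Pitx3eGFP/eGFP cells and 2 in Pitx3eGFP/wt cells, Chrna3 and Chrna6, beside 4.03% and 3.20% of all 16161 entries. The median log2 fold was -0.71 for these genes and 0.0 for all entries.

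**Figure D5:**
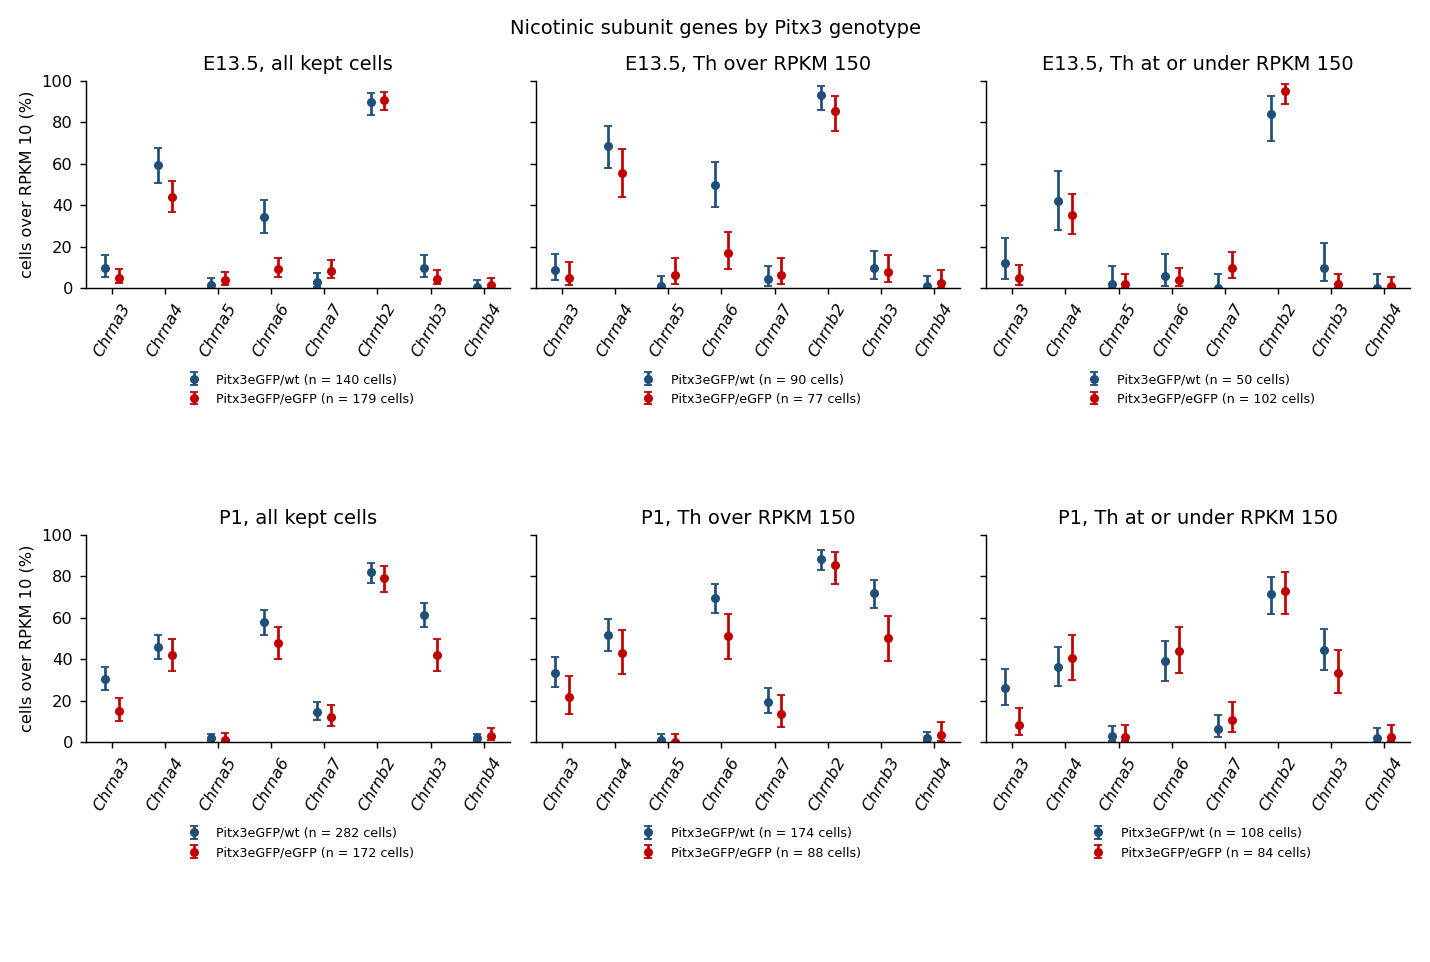
Share of cells with an RPKM over 10 (percent, y axis) for each subunit gene (x axis) in Pitx3eGFP/wt and Pitx3eGFP/eGFP cells at E13.5 and P1, for all kept cells, cells with Th over RPKM 150 and cells with Th at or under 150, with exact 95% binomial intervals. Chrna6 parts widest at E13.5 with Th over 150 (16.9% against 50%), and at P1 Chrna3 parts also with Th at or under 150 (8.33% against 25.9%).

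With Th over 150 at P1, Chrna6 was in 51.1% of 88 Pitx3eGFP/eGFP cells and 69.5% of Pitx3eGFP/wt cells (-18.4 points [-30.5 to -5.94]) and Chrnb3 in 50% and 71.8% (-21.8 points [-33.8 to -9.39]). Both Th and Slc6a3 were over 150 in 8.72% of all Pitx3eGFP/eGFP and 36.2% of all Pitx3eGFP/wt cells. In cells with only Th over 150, Chrna6 together with Chrna4 was in 16.4% of 73 Pitx3eGFP/eGFP and 19.4% of 72 Pitx3eGFP/wt cells. Chrna6 without Chrna4 was in 32.9% and 29.2% of the same cells. These parts went opposite ways with overlapping intervals, so a gap in the share of Chrna6 was not seen in that class. Mean levels were not compared within it. With Th at or under 150, Chrna6 was in 44% of 84 Pitx3eGFP/eGFP cells and 38.9% of Pitx3eGFP/wt cells (5.16 points [-8.67 to 18.9]), so the direction of the share turned there within counting error, while the mean stayed lower in Pitx3eGFP/eGFP cells (109.8 against 191.2; 1.73-fold), and Chrnb3 differed by -11.1 points [-24.2 to 2.82]. Chrna3 differed on both sides of the Th limit, by -11.7 points [-22.1 to -0.0336] above and -17.6 points [-27.5 to -6.82] at or below 150. In bands of Th the Chrna6 share in Pitx3eGFP/eGFP cells was 41%, 52.2%, 62.8% and 40%, with no order, and 31.5%, 54.3%, 70% and 69.4% in Pitx3eGFP/wt cells. The correlation of Chrna6 with Th over cells was 0.09 in the Pitx3eGFP/eGFP and 0.38 in the Pitx3eGFP/wt cells.

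Preparation moved with these values at P1 too. Of the Pitx3eGFP/wt cells, 94 had spike-in RNA and the others had none, and the spike-in cells had larger shares of Chrna3 (19.7 points [8.06 to 31.2]), Chrna6 (12.2 points [0.00803 to 23.5]) and Chrnb3 (27.7 points [16.1 to 37.5]). Against the spike-in cells alone, the genotype differences were wider: -28.5 points [-39.6 to -17.1] for Chrna3, -18.3 points [-29.7 to -5.79] for Chrna6 and -37.9 points [-47.8 to -26.1] for Chrnb3. Chrna4 (-14.5 points [-26.5 to -1.98]) and Chrnb2 (-12.4 points [-20.3 to -3.26]) then also differed beyond counting error. The direction of the Chrna3, Chrna6 and Chrnb3 differences was the same where the cells of both genotypes had spike-in RNA. The spike-in cells of Pitx3eGFP/wt come from 1 plate, and plate and genotype cannot be told apart.

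The pairing of Chrna6 and Chrnb3 was also seen without intact Pitx3. At P1, Chrnb3 was in 74.4% of Pitx3eGFP/eGFP cells with Chrna6 and 12.2% of those without, with a correlation of 0.65 over cells. Cells with Chrna4 only, Chrna6 only, both and neither made up 36.3%, 1.68%, 7.82% and 54.2% of Pitx3eGFP/eGFP cells at E13.5 and 19.2%, 25%, 22.7% and 33.1% at P1. The set of Chrna4, Chrna6, Chrnb2 and Chrnb3 was complete in 2.23% and 13.4%.

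To place the subunits among other genes, the genes most alike were ranked for each subunit found in at least 20% of Pitx3eGFP/wt cells, by Pearson's r of log2(RPKM + 1) averaged over the 6 stages (1186 cells, 10555 genes). Chrna6 was most like Slc18a2, the vesicular monoamine transporter (0.56), then Chrnb3 (0.55), Ddc, which completes dopamine synthesis (0.49) and Th (0.44). Chrnb3 was most like Chrna6 (0.55), Slc18a2 (0.46), Slc6a3 (0.45), Ddc (0.41) and Erc2, a presynaptic scaffold (0.40). The genes nearest to both included the dopamine synthesis and storage genes. Chrna4 was most like Slc6a3 (0.40), Fxyd7 (0.37), Slc10a4 (0.37), Nwd2 (0.35) and Erc2 (0.34). Chrnb2 was most like Pnmal2, Crmp1 and Tmem130 (each 0.32) and Plppr3 and Dpysl5 (each 0.31). No ranked gene correlated with Chrna3 above 0.16 on this average. Chrna5, found in too few cells to be ranked, had a correlation with Chrna3 of 0.39 at P90 and of -0.10 to 0.19 at the other stages. These are descriptions over cells that share libraries and depth.

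Other genes of acetylcholine signalling were followed from lists. Of 8 other nicotinic subunit genes, mostly those of muscle and cochlea, 0 reached a mean of 1 in the stage or genotype comparisons or between the P90 classes, and 1, Chrne, did between the P1 classes, only in cells with neither Th nor Slc6a3 over 150 and only through its highest cell (112.6), without which that mean was 0.940. Of 5 muscarinic receptor genes, which act through G proteins, 4 passed the minimum between stages. Of these Chrm1, Chrm2 and Chrm3 reached it only at P90, with means of 6.89, 10.4 and 4.43 against 0.00685, 0.212 and 0.329 at E13.5, so the minimum fixed their direction and no count is read from them. Chrm5, the muscarinic receptor known from dopamine neurons, was in 11.4% (6.68 to 17.9) of cells at E13.5 and 57.5% (52 to 63) at P90, and at P90 in 57.1% of cells with Th and Slc6a3 over 150 and 52.1% of cells with neither (5.09 points [-9.03 to 18.7]). Of the 4 muscarinic genes tested between the P90 classes, Chrm1, Chrm2 and Chrm3 were at least 2-fold lower in the cells with both. Of all 14946 entries, 9.93% were lower there. Chrm2 and Chrm3 reached the minimum in both classes, but Chrm1 only in cells with neither, which fixed the direction of its call. By share, which does not use the minimum, Chrm1 was in 1.43% and 32.2% (-30.8 points [-38.8 to -21.4]). The direction of Chrm2 and Chrm3 by mean, and of Chrm1 by share, is the reverse of the one for Chrna6 and Chrnb3. At E13.5 Chrm5 was in 2.23% of Pitx3eGFP/eGFP and 11.4% of Pitx3eGFP/wt cells (-9.19 points [-15.7 to -3.75]), and at P1 Chrm1 had means of 0.362 and 2.12, reaching the minimum only in Pitx3eGFP/wt.

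Of the genes for acetylcholine synthesis and breakdown only Ache, the enzyme that degrades acetylcholine, passed the minimum between stages, in 7.14% of cells at E13.5 and 99.1% at P90 (means of 6.22 and 385). Chat, which makes acetylcholine, was over RPKM 10 in 0 of 140 and 1.54% of cells. Between the P90 classes it was in 0% of cells with Th and Slc6a3 over 150 and 2.74% of cells with neither, a class whose mean of 1.75 was 0.788 without its highest cell. Of 10 genes for chaperones and modulators of nicotinic receptors, 9 were tested between stages, 5 were at least 2-fold higher at P90 (Ric3, Lynx1, Lypd1, Ly6e and Vsnl1) and 1 at E13.5 (Lypd6b), beside 20.8% and 19.9% of all entries. Lynx1 and Lypd1 reached the minimum only at P90. Ric3, a chaperone of receptor assembly, was in 20% and 68.6%. Lynx1, whose product binds nicotinic receptors and dampens them, was in 0 of 140 and 56.9%, and Ly6h, of the same family, in 96.4% and 99.1%. At P90 Lynx1 was in 35.7% of cells with Th and Slc6a3 over 150 and 65.8% of cells with neither (-30 points [-42.5 to -15.9]), and Lypd1 in 17.1% and 54.8% (-37.7 points [-48.2 to -24.4]). Both were thus less frequent where Chrna6 and Chrnb3 were most frequent. Of the 9 genes of this list tested between the P90 classes, these 2 were at least 2-fold lower in cells with both and 0 were higher. The other 7 differed less than 2-fold, and 9.93% of all 14946 entries were lower. At P1, 3 of the 9 genes tested (Lynx1, Lypd1 and Lypd6b) were at least 2-fold lower in cells with both genes, beside 14.7% of all 16292 entries. Lynx1 and Lypd6b reached the minimum only in cells with neither, which fixed their direction. Between genotypes Lypd1 was at least 2-fold higher in Pitx3eGFP/eGFP at E13.5, the 1 genotype in which it reached the minimum, and Lypd6b and Rapsn at P1, beside 4.35% and 4.03% of all entries. The Rapsn call rested on 1 cell at 338.3, without which the fold was 1.76.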

How the data were processed

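For each cell the authors deposited read counts and RPKM values for 39468 entries. Per the study's methods, reads were aligned with STAR to mm10 with eGFP and spike-in sequences, uniquely mapping reads were kept, and RPKM was computed with rpkmforgenes over Ensembl genes. Counts are not normalized and were used for depth, for thinning to 100000 reads and for scaled counts. The deposited RPKM values are relative to gene length and mapped reads. There were 45 values with reads but an RPKM of 0, and 0 pairs of cells had identical counts. Dissociation kits differed between embryonic, P1 and P7, and P90 tissue.

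Cells needed over 100000 reads and detection of 15% (3.4% at P90) of the 31526 entries that had a read anywhere in the data. Limits on alignment quality need values not used here. Cells with at least 3 of 8 oligodendrocyte markers over RPKM 10 were left out. No doublet caller was run. Groups came from the labels. Several animals were used per stage but cells are not tied to them, so the comparisons are of single samples and no test was made. Folds are of mean RPKM with a pseudocount of 1, called at 2-fold among entries whose mean reached 1 in one of the groups. Newcombe intervals came from statsmodels 0.14.6 and Clopper-Pearson intervals from scipy 1.17.1, with Python 3.11.15, numpy 2.4.6 and pandas 2.3.3, and the scripts were tested on simulated data.

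The members and gene lists were chosen with earlier results of these data known. Genes named are the 8 subunits, Th, Slc6a3, Pitx3 and eGFP, listed cholinergic genes over RPKM 10 in at least 10% of cells of any group, and for each subunit found in at least 20% of Pitx3eGFP/wt cells its 5 most correlated genes among those found in at least 10%. For Chrna6, 1 of these 5 is not reported here. Adar, Chat, Chrne and Rapsn were named in addition after their values were seen. Of the acetylcholine list, 4 of 5 genes matched an entry by symbol. Alternatives were other thresholds, pseudocounts, filters and subsets of cells.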

Additional observations from a re-analysis of the deposited data

Results flagged for a closer look

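The cells left out as oligodendrocyte lineage enter no comparison, and 6 subunit genes were over RPKM 10 there in more than the 2.68% that a count of 0 would allow, which brings them here. The shares were 31.2% for Chrna4, 29.5% for Chrnb2, 14.3% for Chrnb3, 11.6% for Chrna6, 8.93% for Chrna3 and 6.25% for Chrna7. Th was over RPKM 10 in 21.4% of these cells, whose median depth was 2046245 reads against 1647750 in all kept cells. Whether the transcripts come from these cells, from doublets with a neuron or from free RNA was not tested.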

How the results depend on the processing

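Of the 2 subunit genes at least 2-fold higher at P90 than at E13.5, 1 was left when cells were thinned to 100000 reads, with a pseudocount of 10 and with means of log2 values, because Chrna7 then had log2 folds of 0.96, 0.34 and 0.63. With E15.5 in place of E13.5 the count was 4, as Chrna5 (1.78) and Chrna6 (-2.26) were added. Chrna5 reached the minimum only at P90 (2.57 against 0.0386 at E15.5), so that minimum fixed its direction. For genotype at E13.5 the count of 2 became 4 in cells with Th at or under 150, with Chrna3 (-1.01) and Chrna7 (1.98). With means of log2 values Chrnb3 (-0.42) lost its call there and Chrna4 (-1.13) gained one, and Chrnb4 was called higher in Pitx3eGFP/eGFP when thinned (1.01), with scaled counts (1.59), with Th over 150 (1.5) and with a pseudocount of 0.1 (2.42). For genotype at P1 the count of 2 became 1 with Th over 150 (Chrna3 -0.87), 1 with Th at or under 150 (Chrna6 -0.79) and 1 with a pseudocount of 10 (Chrna3 -0.79). It became 3 in spike-in cells and with means of log2 values, as Chrnb3 was added (-1.04 and -1.48), and the Chrna6 difference turned to 5.16 points with Th at or under 150. The count of 6 for the P90 classes became 3 with a pseudocount of 10, which lowers the folds of rare genes (Chrna3 0.86, Chrna5 0.91 and Chrna7 0.60), and 4 with means of log2 values (Chrna3 0.93 and Chrna5 0.79). Chrnb4 gained a call as lower with scaled counts (-1.23) and a pseudocount of 0.1 (-1.71). At RPKM 50 the differences in share between these classes were 4.34 points [-0.575 to 12.5] for Chrna3, 2.86 points [-0.438 to 9.83] for Chrna5, 5.03 points [0.381 to 13.1] for Chrna7, 40.5 points [26.6 to 52.2] for Chrna4 and 11.5 points [-1.37 to 22.6] for Chrnb2, in place of -5.89 points. The count of 4 for the P1 classes lay between 3 and 5 under every alternative run, but its genes changed. Chrna7 was lost with means of log2 values (0.97) and a pseudocount of 10 (0.58), Chrnb2 was gained with means of log2 values (1.35), and Chrna5 was called lower in spike-in cells (-1.18) and with a pseudocount of 0.1 (-1.13). At a threshold of RPKM 50 the stage difference of Chrna4 was -6.74 points. Without the highest cell of the P90 class with Th and Slc6a3 the log2 folds of Chrna5 and Chrna3 were 1.81 and 1.30 in place of 2.82 and 1.90. Leaving out the P90 plates in turn left the stage count at 2 each time. It was not run for the P90 classes, for which values by plate are given only for Chrna6, Chrnb3 and Chrna3. The pseudocounts of 10 and 0.1, means of log2 values, the neuron marker filter and the removal of the highest cell were chosen after seeing the data. No paired analysis was possible because no result comes from a test and no animal is named. With 1 sample per group, differences between animals and plates are not separated from stage or genotype, nor dissociation kits from the steps of age at which they changed, and in Smart-seq2 a gene at 0 in a cell may be a transcript that was not captured.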

Other observations

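In Pitx3eGFP/eGFP mice at P1, 15 cells had Th and Slc6a3 over RPKM 150, and all 15 had Chrna4, against 60.8% of such Pitx3eGFP/wt cells, while Chrna6 was in 60% (32.3 to 83.7) against 84.3% (75.8 to 90.8) and Chrnb3 in 53.3% against 87.3%. These cells were singled out after their values were seen. In Pitx3eGFP/eGFP cells at P1 with Th up to RPKM 10, 41% had Chrna6, beside 31.5% in Pitx3eGFP/wt and 11.2% in Pitx3eGFP/wt at P90.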
